A study of Mus musculus with 4 samples.

Results

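Myofibroblast activation genes other than collagens were described across the cell classes of the mouse ventricle, and above all in its fibroblast-like nuclei. The set holds 10 of the 25906 genes in the count matrices, found by symbol: Postn, Cthrc1, Tnc, Thbs4, Comp, Cilp, Fap, Ddah1, Meox1 and Runx1. The 10 genes were chosen by their levels in infarct against non-infarct fibroblast nuclei in earlier results of these same libraries, so those levels are a description and carry no test. Ventricular nuclei were sorted on the DNA stain Hoechst and counted by droplet RNA sequencing (10x Genomics 3′ v3.1 chemistry) after wheel running, myocardial infarction, both or neither. The running infarct and sedentary infarct libraries each pooled 4 hearts taken 2 weeks after infarct surgery. The running and sedentary libraries each pooled 2 hearts without an infarct. All mice were WT C57BL/6J of both sexes, 8 weeks old at the start, and had 16 weeks with or without running before the infarct or the collection. Each group was loaded in 1 well (n = 1 library), hearts within a pool cannot be told apart, and no difference between groups could be tested.

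After injury, resident cardiac fibroblasts can turn into myofibroblasts, cells that lay down and pull on scar matrix under signals such as TGF-beta and mechanical load. Besides collagens they secrete matricellular proteins, which sit in the matrix and act on cells more than they bear load, and they switch on transcription factors that hold the activated state. The 10 genes cover secreted proteins (Postn, Cthrc1, Tnc, Thbs4, Comp, Cilp), a protease of the cell surface (Fap), an enzyme of the cytosol (Ddah1) and transcription factors (Meox1, Runx1).

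The libraries held 29916572, 26170995, 37533722 and 32899707 unique molecular identifiers (UMIs) in running infarct, sedentary infarct, running and sedentary hearts, with 2 to 12 cell barcodes shared between any pair of libraries. Of the 4711, 3124, 5832 and 5114 nuclei kept, 1054, 1004, 1554 and 1440 were fibroblast-like, with a median of 3598, 4312, 4016 and 3467.5 UMIs per nucleus. All 12 fibroblast markers had UMIs in that class in every library, but so did all 12 cardiomyocyte and all 12 vascular endothelial markers. The fibroblast markers summed to 6684, 7230, 9662 and 8782 counts per 1000000 (CPM). The next highest list, the 7 B cell markers, summed to 3573, 3595, 4235 and 3809 CPM. The class was named from these markers, so this is a description. Pdgfra stood at 407, 466, 711 and 775 CPM and Dcn at 1063, 1309, 1828 and 1515 CPM. Mitochondrially encoded transcripts took 3.44, 3.34, 10.0 and 5.79% of the UMIs of these nuclei. Class names were rebuilt from markers, since no annotation was used here. The same class was filled by different clusters in different groups. A cluster led by Cemip, Col11a1 and Col12a1 held 55.7, 33.3, 0.644 and 0.347% of fibroblast-like nuclei in running infarct, sedentary infarct, running and sedentary hearts. A cluster led by Kcnip1 held 11.9, 25.3, 46.2 and 48.8%, and one led by Efhd1 held 28.9, 38.7, 51.2 and 49.5%.

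Promoter stretches are shown for 5 members that differed together between infarct and non-infarct hearts, to give the sequence from which each transcript starts. Each is the 250 bases before a transcription start in the RefSeq table of build GRCm38.p6, 5′ to 3′ on the strand of the gene, and 6 of the 10 members matched that table. Capitals mark matches on either strand to the core promoter motif TATAAA, to the motif TGNGGT that RUNX factors bind, or to the motif GGAATG that TEAD factors bind.
Postn, chr3:54360857-54361106, plus strand: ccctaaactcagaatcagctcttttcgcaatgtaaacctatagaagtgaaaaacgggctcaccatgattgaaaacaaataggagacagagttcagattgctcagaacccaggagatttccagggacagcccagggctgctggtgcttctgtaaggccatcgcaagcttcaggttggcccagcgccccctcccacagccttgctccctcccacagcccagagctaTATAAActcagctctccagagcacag
Tnc, chr4:64047016-64047265, minus strand: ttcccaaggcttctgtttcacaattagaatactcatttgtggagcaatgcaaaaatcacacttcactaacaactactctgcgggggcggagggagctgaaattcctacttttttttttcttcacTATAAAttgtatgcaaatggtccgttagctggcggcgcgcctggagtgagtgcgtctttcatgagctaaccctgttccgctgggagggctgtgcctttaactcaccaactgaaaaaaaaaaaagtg
Thbs4, chr13:92794819-92795068, minus strand: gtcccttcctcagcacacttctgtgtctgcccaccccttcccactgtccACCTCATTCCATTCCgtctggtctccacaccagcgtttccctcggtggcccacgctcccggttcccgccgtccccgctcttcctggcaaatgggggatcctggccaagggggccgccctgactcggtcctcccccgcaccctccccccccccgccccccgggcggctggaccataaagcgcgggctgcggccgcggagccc
Ddah1, chr3:145758442-145758691, plus strand: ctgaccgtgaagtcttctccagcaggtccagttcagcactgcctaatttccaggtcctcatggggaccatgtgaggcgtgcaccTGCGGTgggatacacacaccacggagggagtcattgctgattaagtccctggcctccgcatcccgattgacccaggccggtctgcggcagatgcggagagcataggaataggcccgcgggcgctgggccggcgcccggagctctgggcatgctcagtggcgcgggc
Runx1, chr16:92697330-92697579, minus strand: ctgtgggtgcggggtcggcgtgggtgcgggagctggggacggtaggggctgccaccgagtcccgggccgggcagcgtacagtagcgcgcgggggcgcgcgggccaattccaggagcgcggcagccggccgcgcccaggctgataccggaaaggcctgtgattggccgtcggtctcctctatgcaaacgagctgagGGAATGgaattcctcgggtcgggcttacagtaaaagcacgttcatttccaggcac

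The Postn stretch holds a match to TATAAA 26 bases before the start and the Tnc stretch holds one 126 bases before it. In the Thbs4 stretch 1 RUNX and 2 TEAD matches overlap in a single run of capitals. Ddah1 has a RUNX match 166 bases before the start, and the second Runx1 start has a TEAD match 55 bases before it. Over 32851 promoters of the same length in the table, TATAAA was found in 12.4%, TGNGGT in 40.1% and GGAATG in 12.6%. Among the 9 promoters of members (some genes have more than 1 start), 3 held the TATA, 3 the RUNX and 2 the TEAD motif. The 2 Tnc stretches overlap and share 1 TATAAA, so the exact matches to TATAAA lie in Postn and Tnc alone. Variants of these letters were not searched. The other motifs searched were the SMAD sequence CAGAC, found in 42.2% of all promoters and in 4 of the 9, and the AP-1 sequence TGANTCA, found in 6.75% and in 0 of the 9. SMAD matches are not in capitals above. A match is a description of letters, not a site or a cause.

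In fibroblast-like nuclei 9 of the 10 members were at least 1.5-fold higher in sedentary infarct than in sedentary hearts, and 0 were at least 1.5-fold lower. All genes with at least 100 UMIs over both libraries stood at 6.75% higher and 7.42% lower by that fold, but the members were listed from this contrast, so nothing is read from the difference. The same 9 members were at least 1.5-fold higher in running infarct than in running hearts, where 7.99% of all genes were, and Fap was at least 1.5-fold lower, as were 8.64% of all genes. The median log2 ratio of the 10 members was 3.73 for sedentary infarct over sedentary and 3.12 for running infarct over running, beside −0.03 and −0.05 over all genes. All values below in CPM are UMIs of a gene per 1000000 UMIs of the class without mitochondrially encoded genes. Ranges in brackets are 95% exact intervals that cover counting error only, not the spread between hearts.

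**Figure D1:**
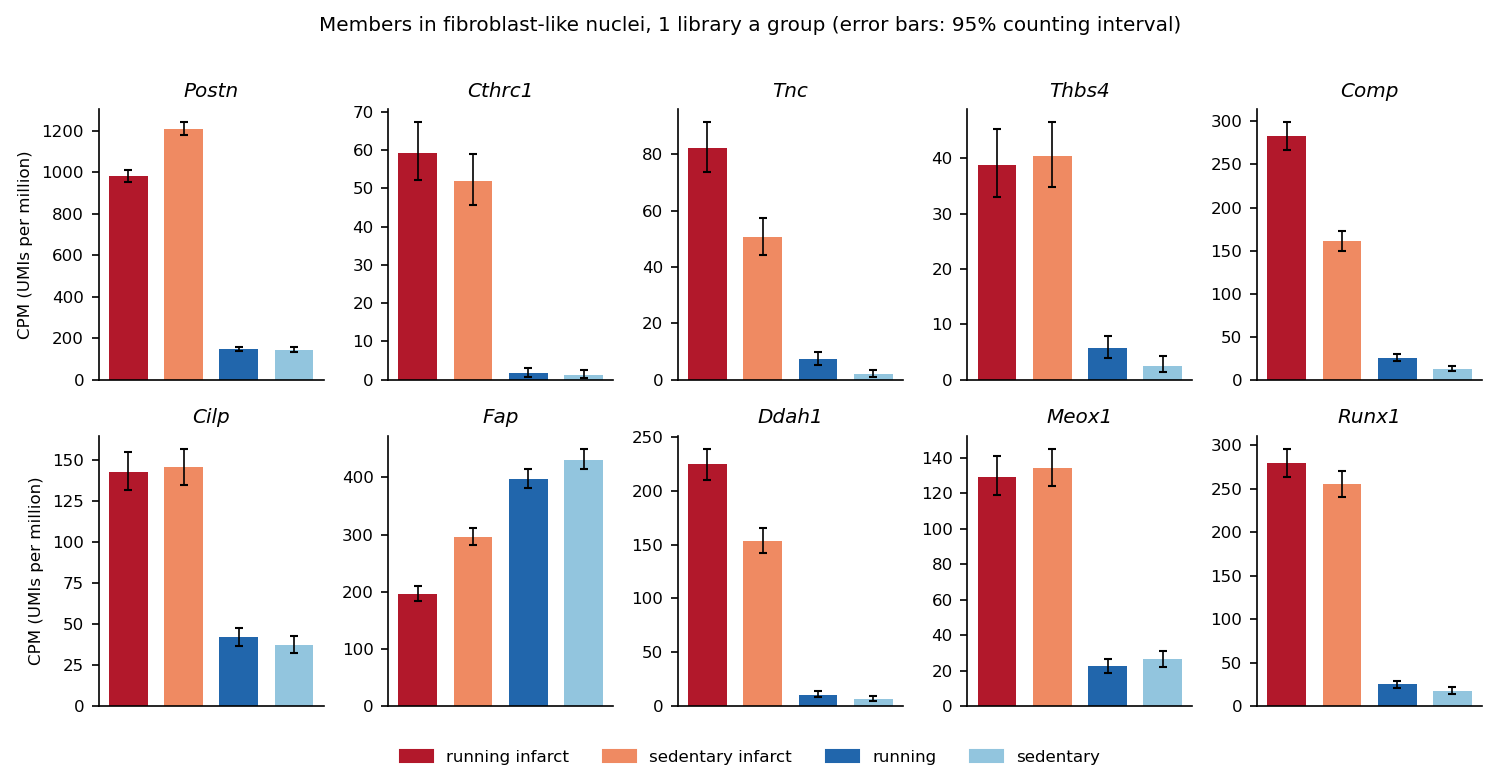
Level in CPM of each of the 10 genes in fibroblast-like nuclei of the running infarct, sedentary infarct, running and sedentary libraries (1 bar per library, n = 1 each). Error lines are 95% exact Poisson intervals for counting error. In 9 panels both infarct bars stand above both other bars, and in the Fap panel both stand below.

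Among the secreted proteins, Postn (ENSMUSG00000027750), which encodes the collagen-binding and integrin-binding matricellular protein periostin, had the most UMIs. Postn stood at 983 CPM (954 to 1014) in running infarct and 1211 CPM (1179 to 1242) in sedentary infarct hearts, against 148 CPM (138 to 158) in running and 145 CPM in sedentary hearts. That was 6.65-fold (6.19 to 7.16) higher in running infarct than in running hearts and 8.34-fold (7.73 to 9.02) higher in sedentary infarct than in sedentary hearts. Postn was thus present at a level above its counting error in hearts without an infarct too, and running and sedentary hearts did not differ beyond counting error (ratio 1.02, 0.923 to 1.12).

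Cthrc1 (ENSMUSG00000054196), a secreted protein with a short collagen-like stretch, showed the other extreme. It stood at 59.3 CPM in running infarct and 52.0 CPM in sedentary infarct hearts, against 1.68 CPM in running and 1.18 CPM in sedentary hearts, where it rested on 10 and 6 UMIs. The ratios were 35.4 (18.9 to 74.7) for running infarct over running and 44.2 (20.0 to 122) for sedentary infarct over sedentary. Those wide intervals come from the few UMIs without infarction. In vascular endothelial-like nuclei Cthrc1 stood at 6.53 CPM in running and 3.54 CPM in sedentary hearts, above its fibroblast-like level. Whether either level without infarct is background was not tested.

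Tnc (ENSMUSG00000028364) encodes tenascin-C, a large matricellular glycoprotein made in injured tissue. Its fibroblast-like level was 82.3 CPM in running infarct and 50.6 CPM in sedentary infarct hearts, against 7.21 CPM in running and 1.96 CPM in sedentary hearts. The ratios were 11.4 (8.3 to 16.1) for running infarct over running and 25.8 (13.8 to 54.5) for sedentary infarct over sedentary. Few nuclei carried it: 10 nuclei held 214 of its 344 UMIs (62.2%) in running infarct hearts, with 53 in 1 nucleus, and 91 of 238 (38.2%) in sedentary infarct hearts. In running hearts 28 of its 43 UMIs came from 1 nucleus. Without the 10 nuclei richest in the gene, the log2 ratio of running infarct over sedentary infarct was −0.01, against 0.70 with them.

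Thbs4 (ENSMUSG00000021702) and Comp (ENSMUSG00000031849) are both thrombospondins, proteins that assemble into pentamers and bind matrix, and Comp is known from cartilage and tendon. Thbs4 stood at 38.7 CPM in running infarct and 40.4 CPM in sedentary infarct hearts, against 5.70 CPM in running and 2.55 CPM in sedentary hearts. The ratios were 6.80 (4.67 to 10.2) for running infarct over running and 15.8 (9.04 to 30.3) for sedentary infarct over sedentary. Its UMIs were concentrated too, with 61.1% of them in 10 nuclei in running infarct and 61.6% in sedentary infarct hearts. Comp stood at 283 CPM (267 to 299) in running infarct and 161 CPM (150 to 173) in sedentary infarct hearts, against 25.5 CPM in running and 12.9 CPM in sedentary hearts. The Comp ratios were 11.1 (9.37 to 13.2) and 12.4 (9.65 to 16.2) for the same comparisons. Comp was the only member of the 6 with enough UMIs to be at least 1.5-fold higher in running than in sedentary hearts (1.97-fold, 1.46 to 2.67), where 2.36% of all genes were. At least 1.5-fold lower in that comparison were 0 of the 6, beside 1.4% of all genes.

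Cilp (ENSMUSG00000042254), a secreted protein of cartilage that restrains TGF-beta signalling, had the smallest ratios of the 9 higher members. It stood at 143 CPM in running infarct and 146 CPM in sedentary infarct hearts, against 42.1 CPM in running and 37.3 CPM in sedentary hearts. The ratios were 3.39 (2.92 to 3.95) for running infarct over running and 3.91 (3.33 to 4.62) for sedentary infarct over sedentary. Cilp was higher in fibroblast-like nuclei than in any other class ranked, in all 4 libraries.

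Fap (ENSMUSG00000000392), the serine protease fibroblast activation protein, went the other way. Fap stood at 196 CPM (183 to 210) in running infarct and 296 CPM (281 to 312) in sedentary infarct hearts, against 397 CPM (381 to 414) in running and 431 CPM in sedentary hearts. It was 2.03-fold (1.87 to 2.20) lower in running infarct than in running hearts and 1.46-fold (1.36 to 1.56) lower in sedentary infarct than in sedentary hearts. A UMI of Fap was found in 32.2, 48.6, 53.0 and 52.2% of fibroblast-like nuclei in running infarct, sedentary infarct, running and sedentary hearts. The gene was thus widespread in fibroblast-like nuclei of hearts without an infarct.

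Ddah1 (ENSMUSG00000028194) encodes the enzyme that breaks down asymmetric dimethylarginine, an inhibitor of nitric oxide synthases. Ddah1 stood at 225 CPM (210 to 239) in running infarct and 153 CPM (142 to 165) in sedentary infarct hearts, against 10.7 CPM in running and 6.47 CPM in sedentary hearts. The ratios were 20.9 (16.2 to 27.4) for running infarct over running and 23.7 (16.7 to 34.7) for sedentary infarct over sedentary. In running and sedentary hearts its fibroblast-like level was below that of vascular endothelial-like nuclei, at 24.0 and 19.7 CPM. Lymphatic endothelial-like nuclei stood at 61.7 CPM in running and 78.9 CPM in sedentary hearts, and endocardial-like nuclei at 44.0 and 43.6 CPM. Endothelial nuclei may thus hold the gene themselves and are no gauge of background for it. Whether the fibroblast-like level without infarct is background was not tested.

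The transcription factor Meox1 (ENSMUSG00000001493) is a homeobox protein, and Runx1 (ENSMUSG00000022952) is a Runt-domain protein best known from blood formation. Meox1 stood at 129 CPM in running infarct and 134 CPM in sedentary infarct hearts, against 22.5 CPM in running and 26.5 CPM in sedentary hearts. Runx1 stood at 279 CPM in running infarct and 255 CPM in sedentary infarct hearts, against 25.1 CPM in running and 18.0 CPM in sedentary hearts. The Meox1 ratios were 5.76 (4.76 to 7.01) for running infarct over running and 5.08 (4.21 to 6.16) for sedentary infarct over sedentary. The Runx1 ratios were 11.1 (9.36 to 13.2) and 14.2 (11.4 to 17.7) for the same comparisons. Macrophage-like nuclei hold far more Runx1 than fibroblast-like ones. Ptprc, the CD45 gene of blood cells, was also higher after infarction in the fibroblast-like class, but by less. It stood at 28.5, 14.0, 6.37 and 8.63 CPM in running infarct, sedentary infarct, running and sedentary hearts. The Ptprc ratios were 4.47 (3.08 to 6.62) for running infarct over running and 1.62 (1.09 to 2.44) for sedentary infarct over sedentary. The 12 macrophage markers together stood at 507, 428, 408 and 397 CPM there, with Fcgr1 at 0 in sedentary hearts, and the 8 T cell markers at 33.2, 32.1, 15.6 and 13.3 CPM, with Cd3e at 0 in all 4 libraries. The part of blood cells in the Runx1 values was not tested.

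Filter and sample makeup bear on the size of these ratios. Fibroblast-like nuclei that passed a limit of 500 genes and 5% mitochondrial UMIs numbered 551, 684, 133 and 675 in running infarct, sedentary infarct, running and sedentary hearts, so the running library kept few. Postn among them stood at 1077 CPM in running infarct and 1385 CPM in sedentary infarct hearts, against 465 CPM in running and 202 CPM in sedentary hearts. The log2 ratio of running infarct over running was then 1.21 for Postn, 0.71 for Cilp and 0.97 for Meox1, against 2.73, 1.76 and 2.53 at the main limit. Without the Cemip-led cluster, a setting chosen after seeing the data, the log2 ratio of sedentary infarct over sedentary was 1.97 for Runx1, 2.47 for Ddah1 and 2.63 for Cthrc1, against 3.82, 4.57 and 5.47 with it. Hearts with and without infarct also differed in the share of Y-positive fibroblast-like nuclei, at 19.6, 17.6, 35.6 and 30.8% in running infarct, sedentary infarct, running and sedentary hearts.

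Prior running was compared within infarct hearts. Tnc and Comp were at least 1.5-fold higher in running infarct than in sedentary infarct hearts, 2 of the 10 members beside 2.84% of all genes, and Fap was at least 1.5-fold lower, beside 1.89% of all genes. The ratios were 1.63 (1.38 to 1.93) for Tnc and 1.76 (1.60 to 1.93) for Comp, and Fap was 1.51-fold (1.38 to 1.65) lower. For Tnc 10 nuclei held 62.2% of the UMIs in running infarct hearts. Without the nuclei richest in it the Tnc ratio lay near even, as given above. Ddah1 was 1.46-fold (1.33 to 1.62) higher and Postn 1.23-fold (1.18 to 1.28) lower in running infarct hearts. Counting intervals covered even for Cthrc1 (1.14, 0.951 to 1.37), Thbs4 (0.96, 0.773 to 1.19), Cilp (0.98, 0.876 to 1.09) and Meox1 (0.962, 0.856 to 1.08). For Runx1 the ratio was 1.09 (1.01 to 1.19).

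The mix of clusters moved with these differences, since the Cemip-led cluster held 55.7% of fibroblast-like nuclei in running infarct and 33.3% in sedentary infarct hearts. That shift depended on how the clusters were drawn. With the 10 genes left out of the clustering, a cluster led by Col12a1 held 48.7% in running infarct and 48.5% in sedentary infarct hearts. A cluster led by Comp and Ltbp2 then held 24.4, 7.75, 0.967 and 1.32% in running infarct, sedentary infarct, running and sedentary hearts, and 81.8% of its nuclei came from the Cemip-led cluster.

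Inside the Cemip-led cluster Runx1 and Cthrc1 were lower in running infarct than in sedentary infarct hearts, and Postn and Cilp were lower by more than over all fibroblast-like nuclei. Postn stood at 1121 CPM in running infarct and 1870 CPM in sedentary infarct hearts, 1.67-fold (1.58 to 1.76) lower. Cilp was 1.71-fold (1.46 to 2.00) lower, at 124 CPM in running infarct and 212 CPM in sedentary infarct hearts. Runx1 was 1.26-fold lower, at 432 CPM in running infarct and 545 CPM in sedentary infarct hearts. Cthrc1 was 1.26-fold (1.04 to 1.52) lower, at 97.4 CPM in running infarct and 122 CPM in sedentary infarct hearts. Thbs4 (56.9 CPM in running infarct and 78.1 CPM in sedentary infarct hearts) and Meox1 (128 and 164 CPM in the same groups) were lower there too. Comp stayed higher, at 441 CPM in running infarct and 332 CPM in sedentary infarct hearts (1.33-fold, 1.20 to 1.47), and so did Tnc, at 137 and 103 CPM in the same groups (1.33-fold, 1.11 to 1.60). Ddah1 differed by no more than counting error there, at 369 CPM in running infarct and 338 CPM in sedentary infarct hearts (1.09-fold, 0.983 to 1.21). Depth differed too, with 35.4% of the nuclei of this cluster under 1500 UMIs in running infarct and 16.2% in sedentary infarct hearts. In its deeper nuclei, a split chosen after seeing the data, each member named above kept its direction. Postn stood there at 1142 CPM in running infarct and 1902 CPM in sedentary infarct hearts. In the same groups Cilp stood at 121 and 216 CPM, Runx1 at 442 and 553, Comp at 443 and 328 and Tnc at 140 and 106 CPM. The part of depth in these ratios was not tested further.

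The cluster that was drawn without the members gave other sizes for the same comparison. In the Col12a1-led cluster Postn was 1.45-fold (1.38 to 1.51) lower in running infarct than in sedentary infarct hearts, Fap 1.37-fold (1.21 to 1.54) lower and Cilp 1.14-fold lower (ratio 0.876, 0.772 to 0.994). Runx1 did not differ beyond counting error (0.951, 0.871 to 1.04), nor did Cthrc1 (1.04, 0.864 to 1.26). Tnc was 1.60-fold, Comp 1.51-fold and Ddah1 1.29-fold (1.16 to 1.43) higher there. In the Efhd1-led cluster Cilp was 1.59-fold (1.32 to 1.91) higher in running infarct hearts, so the direction of Cilp differed between clusters.

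The size of the infarct difference was also set side by side between the arms. The log2 ratio of running infarct over running minus that of sedentary infarct over sedentary was −0.33 (−0.48 to −0.17) for Postn and −0.47 (−0.62 to −0.32) for Fap. It was −1.18 (−2.2 to −0.15) for Tnc and −1.22 (−2.19 to −0.25) for Thbs4, which both had under 50 UMIs in each heart pool without infarct. In running hearts 28 of the 43 Tnc UMIs came from 1 nucleus, and 26 of the 34 Thbs4 UMIs from 10 nuclei. Without the 10 nuclei richest in Tnc, its log2 ratio of running infarct over running was 5.23, against 3.51 with them. The intervals do not cover such concentration, so no arm difference is read for Tnc or Thbs4. For the other 6 members the interval covered 0.

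The Cemip-led cluster held most UMIs of most members. It also held 55.7% of fibroblast-like nuclei in running infarct and 33.3% in sedentary infarct hearts. Of the fibroblast-like UMIs of Cthrc1, 90.3% in running infarct and 91.4% in sedentary infarct hearts were in the Cemip-led cluster. The same share was 90.4 and 85.7% for Ddah1, 91.9 and 79.4% for Tnc, 85.2 and 83.0% for Runx1, and 85.8 and 80.4% for Comp. Thbs4 followed with 80.9% in running infarct and 75.3% in sedentary infarct hearts. Postn had 62.7 and 60.1%, Meox1 54.3 and 47.4%, Cilp 47.7 and 56.6% and Fap 48.7 and 29.9% in the same groups. In running infarct hearts the shares of Meox1, Cilp and Fap lay below the cluster's share of nuclei. In sedentary infarct hearts that of Fap did. The members thus differed in how far their share exceeded that of the nuclei. The clusters were built from these same counts, so this is a description.

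Members also differed between infarct and non-infarct hearts in the clusters shared by all groups. In the Efhd1-led cluster Postn stood at 974 CPM in running infarct and 1141 CPM in sedentary infarct hearts, against 222 CPM in running and 202 CPM in sedentary hearts. Meox1 stood there at 167 and 157 CPM in running infarct and sedentary infarct hearts, against 27.5 and 36.4 CPM in running and sedentary hearts. In the Kcnip1-led cluster Postn stood at 140 CPM in running infarct and 152 CPM in sedentary infarct hearts, against 18.6 CPM in running and 28.7 CPM in sedentary hearts. Those levels are near the Postn level of vascular endothelial-like nuclei, at 165 CPM in running infarct and 155 CPM in sedentary infarct hearts, against 26.1 CPM in running and 19.2 CPM in sedentary hearts. They cannot be told apart from background, and whether either set of nuclei makes them was not tested. In the Efhd1-led cluster Postn lay above that level. It was 4.39-fold (4.00 to 4.82) higher there in running infarct than in running hearts. The same ratio was 5.65 (5.14 to 6.22) for sedentary infarct over sedentary hearts. In the Col12a1-led cluster, drawn without the members, these ratios were 1.25 and 1.87. Whether the make-up of the Efhd1-led cluster differed between groups was not tested.

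Fap behaved differently in those clusters. In the Kcnip1-led cluster it stood at 401 CPM in running infarct and 478 CPM in sedentary infarct hearts, against 614 CPM in running and 670 CPM in sedentary hearts. In the Efhd1-led cluster it stood at 162 CPM in running infarct and 276 CPM in sedentary infarct hearts, against 232 CPM in running and 241 CPM in sedentary hearts. There Fap was 1.43-fold lower in running infarct than in running hearts but 1.15-fold (1.02 to 1.29) higher in sedentary infarct than in sedentary hearts.

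Clustering was repeated with the 10 genes left out, so that they could not draw the cluster borders. The largest cluster of infarct fibroblast-like nuclei was then led by Col12a1, Ltbp2 and Col11a1 and held 48.7, 48.5, 5.61 and 5.41% of them in running infarct, sedentary infarct, running and sedentary hearts. It held 491, 482, 87 and 78 nuclei, and 51.9% of its nuclei came from the Cemip-led cluster, which had 10 and 5 nuclei in running and sedentary hearts. Infarct and non-infarct nuclei of the Col12a1-led cluster therefore differed in make-up. Genes that travel with the members still shaped it, so its levels are a description.

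Within the Col12a1-led cluster the members split. Postn stood at 1291 CPM in running infarct and 1869 CPM in sedentary infarct hearts, against 1029 CPM in running and 997 CPM in sedentary hearts. Meox1 stood at 175 and 196 CPM in running infarct and sedentary infarct hearts, against 139 and 160 CPM in running and sedentary hearts. Cilp stood at 180 and 205 CPM in running infarct and sedentary infarct hearts, against 244 and 343 CPM in running and sedentary hearts. Postn was higher in infarct hearts, at 1.25-fold (1.13 to 1.40) in running infarct over running and 1.87-fold (1.68 to 2.10) in sedentary infarct over sedentary. Meox1 did not differ beyond counting error, with ratios of 1.27 (0.943 to 1.73) and 1.22 (0.927 to 1.65) for the same comparisons. Cilp was 1.67-fold (1.36 to 2.04) lower in sedentary infarct than in sedentary hearts.

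Runx1, Ddah1, Comp and Cthrc1 stood apart from these within the same cluster. Runx1 stood at 385 CPM in running infarct and 405 CPM in sedentary infarct hearts, against 33.3 CPM in running and 40.7 CPM in sedentary hearts. Ddah1 stood at 317 and 246 CPM in running infarct and sedentary infarct hearts, against 61.0 and 20.4 CPM in running and sedentary hearts. Their ratios of sedentary infarct over sedentary were 9.94 (5.90 to 18.2) for Runx1 and 12.1 (5.82 to 30.1) for Ddah1.

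Comp in the Col12a1-led cluster stood at 363 CPM in running infarct and 240 CPM in sedentary infarct hearts, against 99.8 CPM in running and 40.7 CPM in sedentary hearts. Cthrc1 had 220 UMIs (88.1 CPM) in running infarct and 226 UMIs (84.3 CPM) in sedentary infarct hearts, against 0 UMIs in running and 1 UMI in sedentary hearts. A count of 0 allows up to 8.32 CPM in running hearts (3 counts over the cluster), so Cthrc1 may be present there below what this depth shows. For Thbs4 the running infarct over running ratio covered even (0.88, 0.558 to 1.45), as did that of Tnc (1.34, 0.926 to 1.99). The sedentary infarct over sedentary ratio did not, at 1.89 (1.03 to 3.86) for Thbs4 and 5.11 (2.15 to 15.9) for Tnc.

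**Figure D2:**
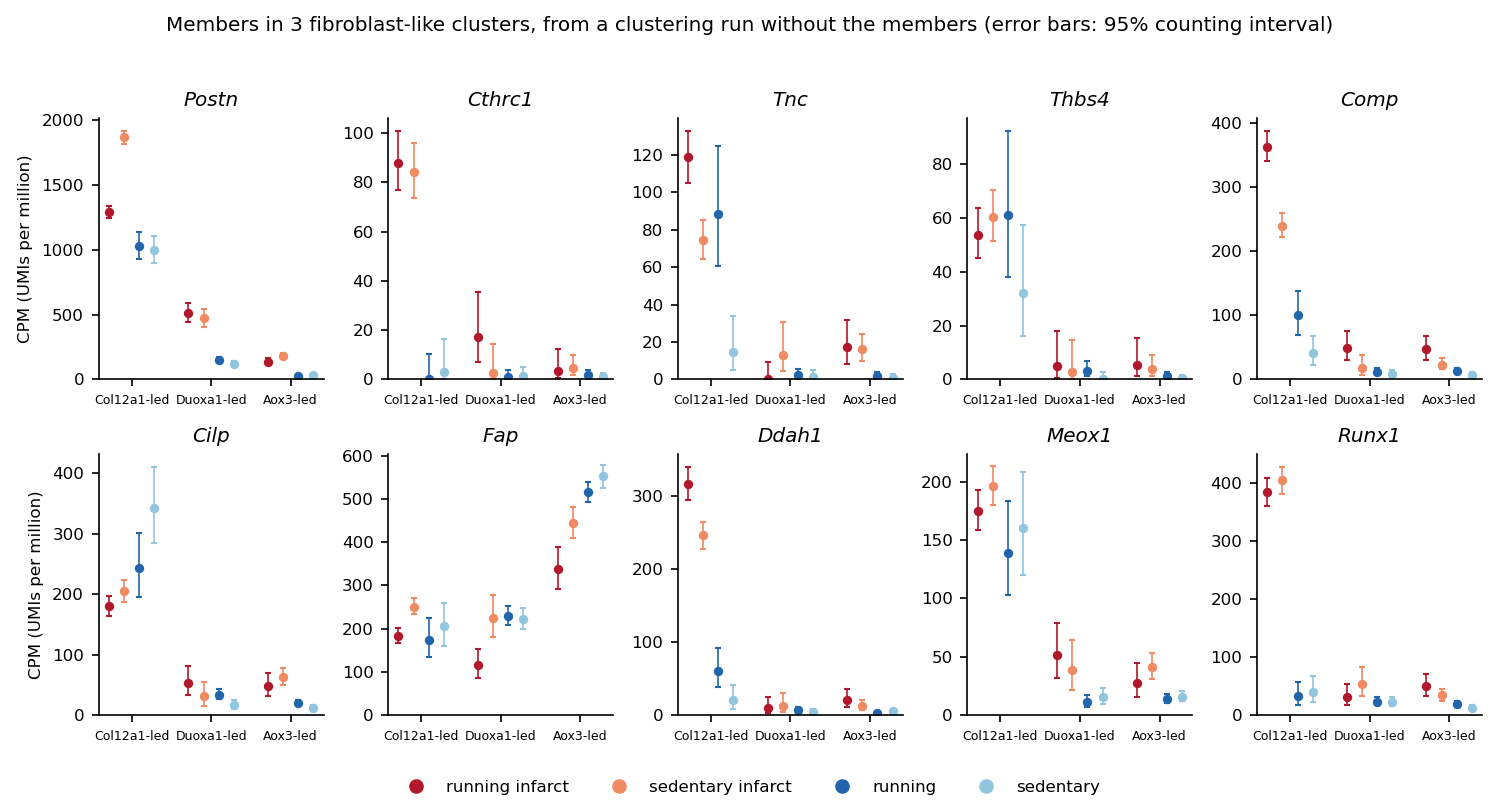
Level in CPM of each member in the Col12a1-led, Duoxa1-led and Aox3-led clusters of the clustering run without the 10 genes, 1 point per library, with 95% exact Poisson intervals. In the Col12a1-led cluster Postn stands at 1291 and 1869 CPM in running infarct and sedentary infarct hearts, against 1029 and 997 CPM in running and sedentary hearts, and Runx1 stands at 385 and 405 CPM in running infarct and sedentary infarct hearts, against 33.3 and 40.7 CPM in running and sedentary hearts.

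Fap in the Aox3-led cluster, which held 15.5, 32.3, 62.2 and 66.2% of fibroblast-like nuclei in running infarct, sedentary infarct, running and sedentary hearts, stood at 337 CPM in running infarct and 444 CPM in sedentary infarct hearts, against 516 CPM in running and 552 CPM in sedentary hearts. It was lower there by 1.53-fold (1.32 to 1.78) in running infarct than in running hearts and by 1.24-fold (1.13 to 1.37) in sedentary infarct than in sedentary hearts. In the Col12a1-led cluster Fap stood at 183 CPM in running infarct and 251 CPM in sedentary infarct hearts, against 175 CPM in running and 206 CPM in sedentary hearts. Intervals of both infarct ratios covered even in that cluster (1.05, 0.805 to 1.39 with running, and 1.22, 0.951 to 1.58 without).

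Co-detection asked how many members a single fibroblast-like nucleus carried. Each nucleus was thinned to 1000 UMIs so that depth was equal, which left 894, 970, 1529 and 1421 nuclei in running infarct, sedentary infarct, running and sedentary hearts and dropped 160, 34, 25 and 19. At least 3 members had a UMI in 15.8% (13.4 to 18.3) of nuclei in running infarct and 13.7% (11.6 to 16.0) in sedentary infarct hearts, against 0.916% (0.501 to 1.53) in running and 0.704% (0.338 to 1.29) in sedentary hearts. Without thinning the shares were 44.7% in running infarct and 45.6% in sedentary infarct hearts, against 5.73% in running and 4.44% in sedentary hearts. Up to 10 members met in 1 nucleus of each infarct library before thinning.

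Vascular endothelial-like nuclei served as the background. At least 3 members had a UMI in 1.05% of them in running infarct hearts and in 0% in the other 3 libraries, which allows up to 1.02, 0.392 and 0.435% in sedentary infarct, running and sedentary hearts (3 nuclei over each total). Their median depth was 1611, 2477, 2587.5 and 2444 UMIs in running infarct, sedentary infarct, running and sedentary hearts. By cluster, nuclei with at least 3 members made up 25.0% (110 of 440) of the Cemip-led cluster in running infarct and 34.0% (104 of 306) in sedentary infarct hearts. In the other fibroblast-like clusters together the share was 6.83, 4.37, 0.917 and 0.704% in running infarct, sedentary infarct, running and sedentary hearts.

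Single members showed the same ordering after thinning. A UMI of Postn was found in 38.3% of fibroblast-like nuclei in running infarct and 38.2% in sedentary infarct hearts, against 6.54% in both running and sedentary hearts, beside 15.6, 11.9, 2.88 and 2.03% of vascular endothelial-like nuclei in running infarct, sedentary infarct, running and sedentary hearts. Runx1 was found in 16.7% of fibroblast-like nuclei in running infarct and 13.3% in sedentary infarct hearts, against 1.96% in running and 1.62% in sedentary hearts. Its share in vascular endothelial-like nuclei was 6.82, 3.39, 1.31 and 1.59% in the same order of groups. The Runx1 shares of running and sedentary hearts were thus close to that background.

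Ddah1 was found in 14.4% of thinned fibroblast-like nuclei in running infarct and 8.35% in sedentary infarct hearts, against 1.24% in running and 0.563% in sedentary hearts. In vascular endothelial-like nuclei it was found in 1.57, 1.69, 2.09 and 1.16% in running infarct, sedentary infarct, running and sedentary hearts. The fibroblast-like shares without infarct were thus below those of a class that may hold the gene itself. Cthrc1 was found in 4.14% of fibroblast-like nuclei in running infarct and 3.30% in sedentary infarct hearts, against 0.0654% in running hearts and 0 of 1421 nuclei in sedentary hearts, which allows up to 0.211% by the same limit. Fap was found in 14.9, 21.6, 27.3 and 28.4% of fibroblast-like and in 2.10, 5.42, 4.58 and 4.06% of vascular endothelial-like nuclei of running infarct, sedentary infarct, running and sedentary hearts.

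Pairs of members were counted in the thinned nuclei and set beside the number expected if both genes fell on nuclei independently. Comp and Ddah1 met in 47 nuclei in running infarct hearts, where 23.2 were expected (ratio 2.02, 1.49 to 2.69), and in 29 nuclei in sedentary infarct hearts, where 8.85 were expected (3.28, 2.19 to 4.71). Ddah1 and Runx1 met in 39 nuclei against 21.5 expected in running infarct hearts (1.81, 1.29 to 2.48) and in 30 against 10.8 expected in sedentary infarct hearts (2.78, 1.88 to 3.98). Comp and Runx1 met in 40 nuclei against 26.8 expected in running infarct (1.49, 1.06 to 2.03) and 32 against 14.1 expected in sedentary infarct hearts (2.27, 1.55 to 3.20). These 3 pairs had the highest ratios in sedentary infarct hearts among pairs with at least 20 nuclei observed or expected. Of such pairs 12 of 13 lay over 1 in running infarct and 14 of 18 in sedentary infarct hearts, with medians of 1.34 and 1.51.

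The 3 lowest pairs in sedentary infarct hearts all held Fap. Fap and Meox1 met in 13 nuclei against 12.5 expected in running infarct (1.04, 0.554 to 1.78) and in 10 against 22.7 expected in sedentary infarct hearts (0.44, 0.211 to 0.809). Comp and Fap met in 21 nuclei against 24.0 expected in running infarct (0.877) and in 11 against 22.9 expected in sedentary infarct hearts (0.479, 0.239 to 0.858). Fap and Runx1 met in 23 nuclei against 22.2 expected in running infarct (1.04) and in 21 against 27.9 expected in sedentary infarct hearts (0.752, 0.465 to 1.15). The low ratios of Fap in sedentary infarct hearts depended on thinning: without it Fap and Meox1 stood at 1.09, Comp and Fap at 0.837 and Fap and Runx1 at 1.05.

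**Figure D3:**
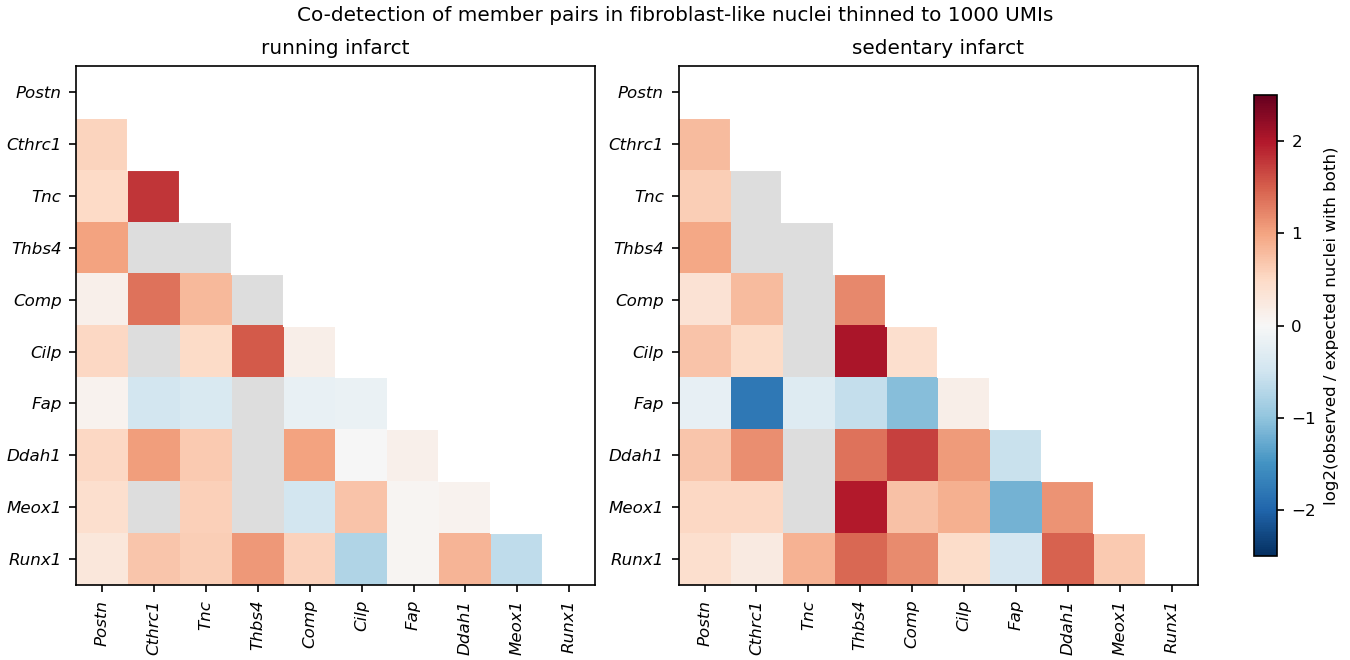
Log2 of observed over expected nuclei for each of the 45 pairs of members in fibroblast-like nuclei thinned to 1000 UMIs, in running infarct (left) and sedentary infarct hearts (right). Red pairs met more often than expected and blue pairs less often, with grey for pairs under 5 nuclei both observed and expected. The row and column of Fap hold most of the blue pairs in sedentary infarct hearts, where Comp and Ddah1 met in 29 nuclei against 8.85 expected.

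A pair can meet more often than expected where both genes are high in the same cluster, so pairs were also counted within clusters. Within the Cemip-led cluster the median ratio of pairs with at least 20 nuclei was 1.25 in running infarct and 1.16 in sedentary infarct hearts (9 pairs each, of which 8 and 7 lay over 1). In hearts without infarct Postn and Fap were the 1 pair with at least 20 nuclei observed or expected. Postn and Cilp, under that limit, met in 16 nuclei against 2.81 expected in running (5.69, 3.25 to 9.24) and in 14 against 2.16 expected in sedentary hearts (6.48, 3.54 to 10.9). That pair was the highest of those with at least 5 nuclei. Of such pairs 4 of 10 in running and 2 of 6 in sedentary hearts lay over 1, with medians of 0.875 and 0.725. Postn and Fap met in 12 nuclei against 27.3 expected in running (0.439, 0.227 to 0.767) and in 18 against 26.4 expected in sedentary hearts (0.682, 0.404 to 1.08).

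Outside fibroblast-like nuclei the order of classes differed by member. Runx1 was highest in macrophage-like nuclei in every library, at 1679 CPM (1617 to 1743) in running infarct and 1331 CPM (1252 to 1412) in sedentary infarct hearts, against 1077 CPM (993 to 1166) in running and 1600 CPM (1484 to 1722) in sedentary hearts. Macrophage-like Runx1 was thus 1.56-fold (1.43 to 1.71) higher in running infarct than in running hearts and 1.20-fold (1.09 to 1.32) lower in sedentary infarct than in sedentary hearts. Tnc was highest in lymphatic endothelial-like nuclei in every library, at 197 CPM (161 to 239) in running infarct and 153 CPM (113 to 202) in sedentary infarct hearts, against 60.2 CPM (47.5 to 75.2) in running and 20.0 CPM (11.5 to 32.6) in sedentary hearts. That class held 124, 73, 267 and 187 nuclei in running infarct, sedentary infarct, running and sedentary hearts.

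**Figure D4:**
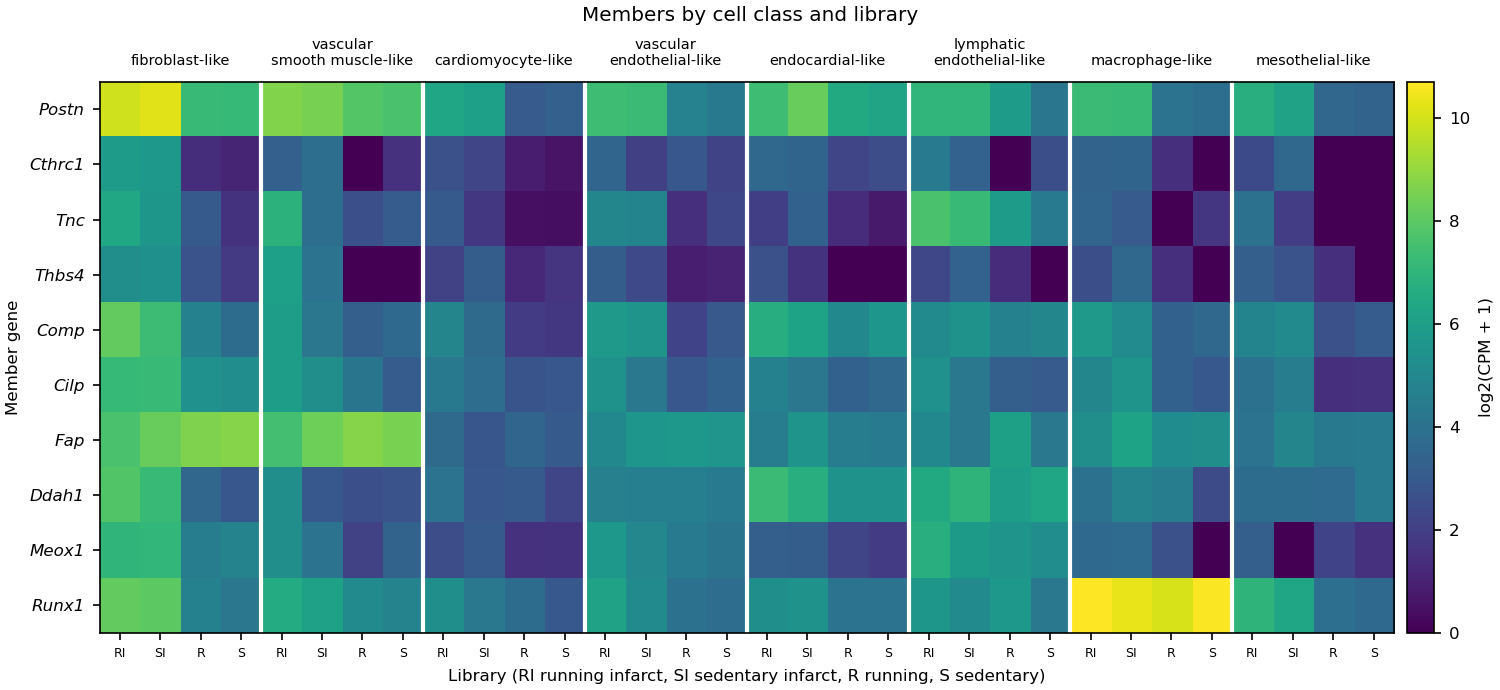
Heat map of log2(CPM + 1) for the 10 members (rows) in 8 cell classes, each with running infarct (RI), sedentary infarct (SI), running (R) and sedentary (S) libraries as columns. Runx1 is brightest in macrophage-like nuclei in all 4 libraries, and Postn is brightest in fibroblast-like nuclei of infarct hearts, at 983 CPM in running infarct and 1211 CPM in sedentary infarct hearts.

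Fap in vascular smooth muscle-like nuclei stood at 184 CPM (142 to 236) in running infarct and 328 CPM (277 to 386) in sedentary infarct hearts, against 429 CPM (378 to 486) in running and 376 CPM (325 to 433) in sedentary hearts. In each library these intervals overlap those of fibroblast-like nuclei, so the 2 classes are not ordered for Fap. At a clustering resolution of 2 this class split into pericyte-like (48.7%) and smooth muscle-like (46.1%) nuclei. Fap in the pericyte-like nuclei stood at 265 CPM in running infarct and 432 CPM in sedentary infarct hearts, against 673 CPM in running and 567 CPM in sedentary hearts. In the smooth muscle-like nuclei it stood at 151 CPM (104 to 210) in running infarct and 220 CPM (162 to 292) in sedentary infarct hearts, against 140 CPM (97.3 to 196) in running and 110 CPM (64.9 to 173) in sedentary hearts. The lower Fap after infarction was thus seen in the pericyte-like and not in the smooth muscle-like nuclei, a difference that was not tested. Postn in the whole class stood at 416 CPM in running infarct and 369 CPM in sedentary infarct hearts, against 227 CPM (190 to 268) in running and 200 CPM (163 to 242) in sedentary hearts. Without infarct that was above fibroblast-like Postn, whose intervals did not reach it.

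Ddah1 in endocardial-like nuclei stood at 159 CPM (141 to 179) in running infarct and 103 CPM (84.0 to 125) in sedentary infarct hearts, against 44.0 CPM in running and 43.6 CPM in sedentary hearts. The ratio was 3.61 (2.82 to 4.67) for running infarct over running and 2.36 (1.71 to 3.28) for sedentary infarct over sedentary. Postn in endocardial-like nuclei stood at 164 CPM in running infarct and 300 CPM (267 to 335) in sedentary infarct hearts, against 90.1 CPM in running and 75.5 CPM in sedentary hearts. All 3 members with enough UMIs in that class, Postn, Comp and Ddah1, were at least 1.5-fold higher in both infarct comparisons, beside 5.33% of all genes for running infarct over running and 5.9% for sedentary infarct over sedentary.

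Droplets can carry free RNA, and the abundant members were also counted in classes other than fibroblast-like nuclei. Postn in vascular endothelial-like nuclei stood at 165 CPM in running infarct and 155 CPM in sedentary infarct hearts, against 26.1 CPM in running and 19.2 CPM in sedentary hearts. In running infarct hearts the vascular endothelial-like level was 16.8% of the fibroblast-like level for Postn, 31.2% for Dcn and 10.7% for Ddah1. In cardiomyocyte-like nuclei Postn stood at 80.9 CPM in running infarct and 65.9 CPM in sedentary infarct hearts, against 7.39 CPM in running and 8.74 CPM in sedentary hearts. In sedentary infarct hearts some members stood higher in T-like (52 nuclei) or B-like nuclei (21). Cthrc1 stood at 61.5 CPM (34.4 to 101) in T-like nuclei, beside 52.0 CPM in fibroblast-like ones. Comp stood at 188 CPM in T-like and 295 CPM in B-like nuclei, beside 161 CPM. In running infarct hearts T-like nuclei lay below fibroblast-like ones, at 51.3 against 59.3 CPM for Cthrc1 and 152 against 283 CPM for Comp. Whether such levels are made in those classes was not tested.

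Other genes of the activated state were read from lists chosen with earlier results known. Each count below stands beside the share of all genes past the same fold in that comparison, 7.99% higher and 8.64% lower for running infarct over running and 6.75% higher and 7.42% lower for sedentary infarct over sedentary. Of the secreted matrix genes of activated fibroblasts other than collagens, 16 of 23 measured were at least 1.5-fold higher and 0 lower in fibroblast-like nuclei in each infarct comparison, with median log2 ratios of 1.24 for running infarct over running and 0.87 for sedentary infarct over sedentary. Ccn4, a matricellular protein of the CCN family, stood at 39.5 CPM in running infarct and 31.4 CPM in sedentary infarct hearts, against 1.51 CPM in running and 1.37 CPM in sedentary hearts. Sfrp2, a secreted modulator of Wnt signalling, stood at 61.7 CPM in running infarct and 39.9 CPM in sedentary infarct hearts, against 6.37 CPM in running and 2.35 CPM in sedentary hearts. Adamts12, a secreted metalloprotease, was the lowest-ranked of this list and stood at 236, 204, 251 and 242 CPM in running infarct, sedentary infarct, running and sedentary hearts. Between the infarct libraries 6 of 24 were at least 1.5-fold higher with running and 0 lower, beside 2.84 and 1.89% of all genes.

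Contractile genes of myofibroblasts were at least 1.5-fold higher for 7 of 9 measured in running infarct over running and 6 of 10 in sedentary infarct over sedentary hearts, and 0 were lower in either. Actn1, the alpha-actinin that crosslinks actin at adhesions, stood at 304 CPM in running infarct and 233 CPM in sedentary infarct hearts, against 40.4 CPM in running and 46.1 CPM in sedentary hearts. Palld, an actin-bundling protein, stood at 306 CPM in running infarct and 256 CPM in sedentary infarct hearts, against 73.7 CPM in running and 69.4 CPM in sedentary hearts. Mural markers were also higher after infarction in fibroblast-like nuclei, with none at 0. The 8 pericyte markers together stood at 408, 468, 266 and 266 CPM in running infarct, sedentary infarct, running and sedentary hearts. In the same order the 8 smooth muscle markers stood at 174, 189, 121 and 130 CPM, but Acta2 and Tagln are in the contractile list too. Between the infarct libraries both marker sums were lower with running, where the median log2 ratio of the contractile genes was 0.21. The part of mural RNA in the contractile values was not tested.

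Relatives of the members by family were mixed. Of 12 measured, 1 was at least 1.5-fold higher and 3 lower in running infarct over running (7.99 and 8.64% of all genes), and 2 were higher and 1 lower in sedentary infarct over sedentary (6.75 and 7.42% of all genes), with median log2 ratios of 0.01 in both. Thbs1, the thrombospondin that can release TGF-beta from its latent form, stood at 107 CPM in running infarct and 99.6 CPM in sedentary infarct hearts, against 29.3 CPM in running and 15.1 CPM in sedentary hearts. Its relative Thbs2 stood at 75.3, 77.3, 64.8 and 49.6 CPM in running infarct, sedentary infarct, running and sedentary hearts. Dpp4, the membrane protease nearest to Fap, stood at 48.5 CPM in running infarct and 41.0 CPM in sedentary infarct hearts, against 115 CPM in running and 77.9 CPM in sedentary hearts. Tnxb, the tenascin of resting connective tissue, stood at 580 CPM in running infarct and 734 CPM in sedentary infarct hearts, against 1360 CPM in running and 1044 CPM in sedentary hearts. Dpp4 and Tnxb thus sat on the side of Fap, and Thbs1 on that of Thbs4 and Comp.

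Regulators of fibroblast activation were at least 1.5-fold higher for 6 of 19 in running infarct over running and 4 of 19 in sedentary infarct over sedentary hearts, with 0 lower. Nox4, an oxidase induced by TGF-beta, stood at 1151 CPM in running infarct and 984 CPM in sedentary infarct hearts, against 278 CPM in running and 219 CPM in sedentary hearts. Smad7, the inhibitory Smad, stood at 232 CPM in running infarct and 216 CPM in sedentary infarct hearts, against 97.9 CPM in running and 85.5 CPM in sedentary hearts. The fibroblast lineage factors Tcf21 and Prrx1 differed less: Tcf21 stood at 46.4, 35.7, 51.8 and 48.4 CPM and Prrx1 at 280, 266, 331 and 309 CPM in running infarct, sedentary infarct, running and sedentary hearts.

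Of 6 measured cartilage and tendon type genes, the Wnt modulators Frzb and Dkk3 were at least 1.5-fold higher in both infarct comparisons and 0 were lower. Frzb stood at 94.7 CPM in running infarct and 77.7 CPM in sedentary infarct hearts, against 37.4 CPM in running and 23.3 CPM in sedentary hearts. Resting fibroblast genes stood on the other side, with 15 of 20 at least 1.5-fold lower and 0 higher in running infarct over running, and 10 lower and 1 higher in sedentary infarct over sedentary hearts. The scavenger receptor gene Scara5 stood at 122 CPM in running infarct and 146 CPM in sedentary infarct hearts, against 460 CPM in running and 451 CPM in sedentary hearts. G0s2, an inhibitor of lipolysis, stood at 12.9 CPM in running infarct and 25.9 CPM in sedentary infarct hearts, against 54.5 CPM in running and 94.9 CPM in sedentary hearts. Igfbp3, which binds insulin-like growth factors, was the 1 higher gene, at 21.8, 20.8, 19.1 and 13.3 CPM in running infarct, sedentary infarct, running and sedentary hearts.

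Abundant cardiomyocyte transcripts in fibroblast-like nuclei, a gauge of free RNA, were at least 1.5-fold lower for 4 of 12 in running infarct over running and 2 of 12 in sedentary infarct over sedentary hearts, with 0 higher. Pln stood at 141, 151, 227 and 231 CPM and Ryr2 at 115, 152, 194 and 232 CPM in running infarct, sedentary infarct, running and sedentary hearts, and Mybpc3 lay between 45.9 and 56.5 CPM in all 4.

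The genes whose pattern over 35 class and library units was most like the mean standardized profile of the 10 members were Pmepa1 (Pearson r = 0.907), Nox4 (0.893), Mfap4 (0.879), Ccn5 (0.857), Thbs1 (0.853), Ccn2 (0.83), Kcnj15 (0.824), Ltbp2 (0.823), Chsy3 (0.813) and Adamtsl2 (0.812). The units share libraries, depth and free RNA, so the coefficients describe likeness alone. In fibroblast-like nuclei Pmepa1 stood at 477 CPM in running infarct and 423 CPM in sedentary infarct hearts, against 159 CPM in running and 190 CPM in sedentary hearts. Ltbp2, which is found with elastic fibres, stood at 349 CPM in running infarct and 251 CPM in sedentary infarct hearts, against 29.7 CPM in running and 32.4 CPM in sedentary hearts.

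Members differed in what they resembled. Postn was nearest to Ccn2 (r = 0.953) and Pmepa1 (0.868), Comp to Ltbp2 (0.833) and Itgbl1 (0.825), Tnc to Thbs1 (0.825) and Adam12 (0.794), and Cilp to Pmepa1 and Ccn5 (both 0.892). Fap was nearest to Ebf2 (0.934) and Cygb (0.929), and Runx1 to Ptprc (0.932) and Arhgap4 (0.92), the first a leukocyte gene. Ddah1 was nearest to Ptn (0.76) and Lhfpl2 (0.74), Meox1 to Hcfc2 (0.81) and Rps6ka4 (0.76), Cthrc1 to Hs6st2 (0.718) and Rims1 (0.711), and Thbs4 to C1qtnf3 (0.693) and Sfrp2 (0.67). Against the mean of the other members, Cilp (0.887), Postn (0.863) and Comp (0.838) had the highest coefficients and Fap (0.388) and Runx1 (0.425) the lowest.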

How the data were processed

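Nuclei of 4 pooled libraries (running infarct, sedentary infarct, running, sedentary) were analysed from the deposited raw UMI counts per gene and barcode, which were made with Cell Ranger 7.1 on GRCm39, per the submitters' processing notes. The 10 members, the gene lists and the rules below were chosen with earlier results of these data known. A barcode needed 300 or more genes and a mitochondrial share of 20% or less, and 192, 82, 301 and 228 barcodes with the highest Scrublet scores were removed as doublets, at 0.8% per 1000 barcodes, because the automatic threshold marked 1640 in running infarct hearts and 0 in each other library. Nuclei were scaled to 10000 counts, logged, reduced to 40 principal components of the 3000 most variable genes, joined to 15 neighbours and clustered by Leiden at a resolution of 1 (scanpy 1.11.5, python 3.11.15, igraph 0.11.9). A cluster was named from 146 markers of 17 cell types by a mean score of at least 0.5 with at least 3 markers in 10% of its nuclei. A limit of 1 was tried first and left the Cemip-led cluster unnamed, so the limit was lowered after that was seen. No name went to a cluster whose median doublet score reached 0.1 or that markers of another type led (12.9, 15.0, 22.8 and 19.9% of nuclei).

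UMIs were summed per class and library and divided by the class total without the 37 mitochondrially encoded genes (CPM). CPM carry exact Poisson, ratios exact conditional binomial and shares exact Clopper-Pearson intervals at 95%, and the p-value of no comparison is given because each group is 1 library. Shares per nucleus were taken after thinning each nucleus to 1000 UMIs by sampling without replacement. Genes entered a comparison with at least 100 UMIs over both libraries. The scripts were tested on simulated counts. From each list the genes named were up to 2 higher and 2 lower with the interval farthest from even in sedentary infarct over sedentary hearts, and the likeness rule took the 10 genes nearest to the mean member profile, without collagens, Y-linked genes and numbered gene models, and the 2 nearest to each member. Y-positive nuclei had 2 or more UMIs over 4 Y-linked genes. Promoters came from a RefSeq table of another build (GRCm38.p6) than the counts and were matched by symbol. The alternatives were other filters, doublets kept, other resolutions, clustering without the members or per library, other denominators, nuclei split by Y-linked UMIs, the richest nuclei removed, endothelial background subtracted and other count limits, folds and thinning depths. Leaving out the Cemip-led cluster (cluster 3) or nuclei under 1500 UMIs was added after seeing the data.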

Additional observations from a re-analysis of the deposited data

How the results depend on the processing

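The count of 9 members at least 1.5-fold higher in each infarct comparison stayed within 1.5 times under all alternatives run, and those 9 kept their direction under each alternative that gave a ratio. Fap kept its direction too, with log2 ratios of −1.24 to −0.83 for running infarct over running and −0.65 to −0.35 for sedentary infarct over sedentary. Sizes moved more: leaving out the Cemip-led cluster or the limit of 500 genes and 5% mitochondrial UMIs gave most of the lowest values, with Postn at 1.21 to 3.20 and Runx1 at 1.89 to 4.33 (log2) for running infarct over running, and Postn at 2.45 to 3.86 and Runx1 at 1.97 to 5.49 for sedentary infarct over sedentary. Of 627 alternative values of single members, 510 moved by less than their counting interval, 111 moved by more and 6 changed sign. Those 6 were log2 ratios of Tnc in running infarct over sedentary infarct hearts, at −0.82 in Y-positive nuclei, −0.01 without the 10 nuclei richest in it and −0.20 without the Cemip-led cluster (chosen after seeing the data), of Tnc in running over sedentary hearts at −0.28 in Y-negative nuclei, of Thbs4 there at −0.20 in Y-positive nuclei, and of Ddah1 there at −0.23 with vascular endothelial-like CPM subtracted. The cause of these changes was not tested. Some settings left 0 UMIs of Tnc, Cthrc1 or Thbs4 in a library without infarct (the limit of 500 genes and 5%, Y-positive nuclei, the richest nuclei removed) and gave no ratio there.

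Counts between running and sedentary arms depended on the settings. The 2 members higher in running infarct over sedentary infarct hearts became 1 in Y-positive nuclei, 4 with the mean of per-nucleus CPM and 0 at a fold of 2. The 1 member higher in running over sedentary hearts became 5 at 500 genes and 5% mitochondrial UMIs, 2 at resolution 2, 0 among Y-positive nuclei, 2 among Y-negative ones, 2 without the richest nuclei, 2 with endothelial CPM subtracted, 4 with no filter on counts (16.3% of all genes), 0 at 500 UMIs (0.93%) and 0 at a fold of 2 (0.363%). The share of fibroblast-like nuclei with at least 3 members followed depth and definition. In running infarct hearts (15.8%) it was 5.5% thinned to 500 UMIs, 34.8% at 2000, 44.7% not thinned, 37.6% for at least 2 members, 7.49% without Postn, 18.8% in Y-positive nuclei and 6.83% without the Cemip-led cluster. In sedentary infarct hearts (13.7%) the same settings gave 5.48, 27.8, 45.6, 33.4, 6.91, 18.2 and 4.37%. In running hearts (0.916%) it was 0.386% thinned to 500 UMIs, 5.73% not thinned, 4.84% for at least 2 members, 0.262% without Postn and 2.26% at 500 genes and 5% mitochondrial UMIs. In sedentary hearts (0.704%) it was 0.209% at 500 UMIs, 2.08% at 2000, 4.44% not thinned, 4.22% for at least 2 members and 0.211% without Postn. Depth limits Cthrc1, Tnc, Thbs4 and Ddah1 without infarct, each under 100 UMIs per library. No paired analysis was possible because each group has 1 library, and no test between groups was possible either.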

Other observations

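Among the smooth muscle-like nuclei that separated at resolution 2, Tnc stood at 173 CPM in running infarct and 13.8 CPM in sedentary infarct hearts, against 8.26 CPM in running hearts and 0 of its UMIs in sedentary hearts. Of the 597 nuclei of the whole class over the 4 libraries, 275 took that name. These levels thus rest on few nuclei per library, and whether a few of them carry the difference was not tested. T-like nuclei, few in hearts without infarct (127, 52, 16 and 9 in running infarct, sedentary infarct, running and sedentary hearts), had Runx1 at 808, 959, 574 and 529 CPM in the same order of groups.

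Levels of some members differed with depth inside the Cemip-led cluster. In running infarct hearts, its nuclei under 1500 UMIs had Thbs4 at 191 CPM (133 to 266), Postn at 867 CPM and Cthrc1 at 27.3 CPM, and its deeper nuclei had Thbs4 at 45.3 CPM, Postn at 1142 CPM and Cthrc1 at 103 CPM. In sedentary infarct hearts the 54 nuclei under 1500 UMIs had Thbs4 at 36.6 CPM (4.43 to 132), Postn at 805 CPM and Cthrc1 at 110 CPM (40.3 to 239), and the deeper ones had Thbs4 at 79.3 CPM, Postn at 1902 CPM and Cthrc1 at 123 CPM. Thbs4 and Cthrc1 thus did not differ with depth beyond counting error in sedentary infarct hearts. A small Wif1-led cluster of fibroblast-like nuclei, with 24, 23, 25 and 16 nuclei in running infarct, sedentary infarct, running and sedentary hearts, had Postn at 1069, 973, 742 and 1535 CPM and Comp at 259, 295, 276 and 232 CPM in those groups.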
